A study of Mus musculus with 3 samples.

Results

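The genes described here are 10 targets of the transcription factor p53 that are linked to cell death. Tnfrsf10b, Fas and Eda2r are receptors of the tumour necrosis factor family, and Bax, Bbc3 and Pmaip1 belong to the Bcl2 family. The others are the caspase activator Apaf1, the nuclease Aen, and the membrane proteins Ei24 and Perp. The genes were looked for among 20595 UniGene clusters of mouse skin through tags that match a gene's reference transcripts exactly. For Tnfrsf10b, a tag shared with a pseudogene was counted in this naming. The description of a cluster also named the gene for 8 of the member clusters. All 10 were found, in 12 clusters, since Aen and Ei24 had a pair of clusters each, and all 12 clusters had enough tags to be tested, as had 13812 of the series. Whole skin came from male C57BL/6 mice aged 2 months, all of which had been depilated so that their hair follicles entered growth. The day 0 skin had no drug, and the day 1 and day 2 skins were taken 1 and 2 days after cyclophosphamide, an alkylating anticancer drug, injected intraperitoneally (150 mg/kg) on day 9 after the depilation. With 1 library per group and no untreated skin of days 1 and 2, the drug and the time since depilation cannot be told apart, and the sources used here do not say how many mice went into a library.

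When DNA is damaged, p53 accumulates and switches on genes that stop the cell cycle or kill the cell. In the mitochondrial route, Bbc3 (Puma) and Pmaip1 (Noxa) block survival proteins of the Bcl2 family, Bax opens the outer mitochondrial membrane, and released cytochrome c joins Apaf1 to form the apoptosome that activates caspases. In the other route, receptors on the cell surface such as Fas and Tnfrsf10b, the mouse receptor for the death ligand TRAIL, start the caspases from outside. The matrix of the growing hair follicle divides fast and is a classical site of p53-dependent cell death after cyclophosphamide, which is why the drug causes hair loss.

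The libraries were made by digital gene expression, which counts a transcript through a tag of 21 bases beginning with CATG, the letters at which the enzyme NlaIII cuts. Sites are numbered here from the 3' end of the cluster's sequence, as in the tables. The tags below carry the results for the genes called after the drug (Tnfrsf10b and Eda2r), for Perp, which had the smallest p between days 1 and 2, and for Bax and Apaf1 of the mitochondrial route. Capitals mark the cut site, and every tag reads 5' to 3' along the transcript.
Tnfrsf10b site 1: CATGctggagaggtagctcag
Tnfrsf10b site 4: CATGgagaaaattgaagacta
Eda2r site 1: CATGagtggatactgacaagt
Eda2r site 6: CATGtgttcatcttatattag
Perp site 5: CATGgggacgagcagctgcag
Perp site 4: CATGtatgtcgtgtggagtta
Bax site 1: CATGgcagacagtgaccatct
Apaf1 site 1: CATGaattttaaaacaaaaat
The tags were placed on GENCODE M21 transcripts of build GRCm38. Both Tnfrsf10b tags lie in exon 8 of 8, site 1 in the 3' UTR at chr14:69784223-69784243 (plus strand) and site 4 in the coding part at chr14:69782464-69782484. Both Eda2r tags lie in the 3' UTR in exon 8 of 8 on the minus strand, at chrX:97333901-97333921 and chrX:97335755-97335775. Site 5 of Perp is in coding exon 2 of 3 at chr10:18853537-18853557 and site 4 in the 3' UTR in exon 3 at chr10:18856034-18856054, both on the plus strand. The Bax tag is in coding exon 6 of 6 at chr7:45461915-45461935, and the Apaf1 tag in the 3' UTR in exon 27 of 27 at chr10:90989338-90989358, both on the minus strand. Each of these tags matches transcripts of 1 gene, except site 4 of Tnfrsf10b, which is also in the processed pseudogene Gm15574.

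Depth was similar in the 3 libraries, with 2731787 tags in the table of day 0, 2859653 in that of day 1 and 2636804 in that of day 2. These are 45.3%, 47.1% and 46.5% of all tags kept, and the other kept tags are in no listed cluster. Levels are tags per 1000000 (CPM) of the totals in the tables, each multiplied by a TMM scaling factor from edgeR. Intervals of levels and ratios are 95% exact intervals that cover counting error only. Tags were amplified by PCR without molecular identifiers, and several copies can stem from 1 molecule. A gene is written as higher, lower, risen or fallen only where it was called: the exact conditional binomial test on the tags of a pair of libraries gave a Benjamini-Hochberg adjusted p of 0.001 or less over all tested clusters, at a ratio of 2 or more. With 1 library per group this test compares libraries, not conditions, and no difference has a replicate check. The labelled tissue was visible in keratinocyte genes: all 7 on the list were present in every library, Krt5 and Krt10 among them, with a summed level of 12224, 16435 and 15557 CPM at days 0, 1 and 2.

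Of the 12 member clusters, 1 was called at day 1 and 2 at day 2, counts too small to be read as a share. At day 1, Tnfrsf10b rose and 0 of the 12 clusters fell, where 1.53% of all tested clusters were called higher and 1.43% lower. At day 2, Tnfrsf10b and Eda2r rose against day 0 and 0 fell, against 3.45% called higher and 3.08% lower among all clusters. In whole skin, a change in the number of cells of a type and in the RNA per cell cannot be told apart. Between days 1 and 2, 0 member clusters were called in either direction, against 1.83% higher and 1.11% lower of all. An unadjusted p under 0.05 in the exact test was reached by 5 member clusters at day 1, against 31.9% of all clusters, by 7 at day 2, against 37.3%, and by 3 between days 1 and 2, against 30.1%. The median log2 ratio of the 12 clusters was 0.31 at day 1, 0.035 at day 2 and -0.20 between days 1 and 2, while over all tested clusters it was -0.02, 0.01 and -0.01. Of the 12 ratios 8 were positive at day 1, 7 at day 2 and 5 between days 1 and 2, where 48.7%, 50.4% and 49.4% of all tested clusters were positive. Without a test, a ratio of 2 or more was reached upwards by 3 member clusters at day 1 (5.79% of all clusters), by 3 at day 2 (9.11%) and by 1 between days 1 and 2 (7.8%). These were Tnfrsf10b, Eda2r and Pmaip1 at both days, and Eda2r between them. Downwards it was reached by 0 members in the 3 comparisons, against 6.83%, 8.2% and 4.89% of all clusters. The comparisons with day 0 share that library, and their values are given side by side for each gene.

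**Figure D1:**
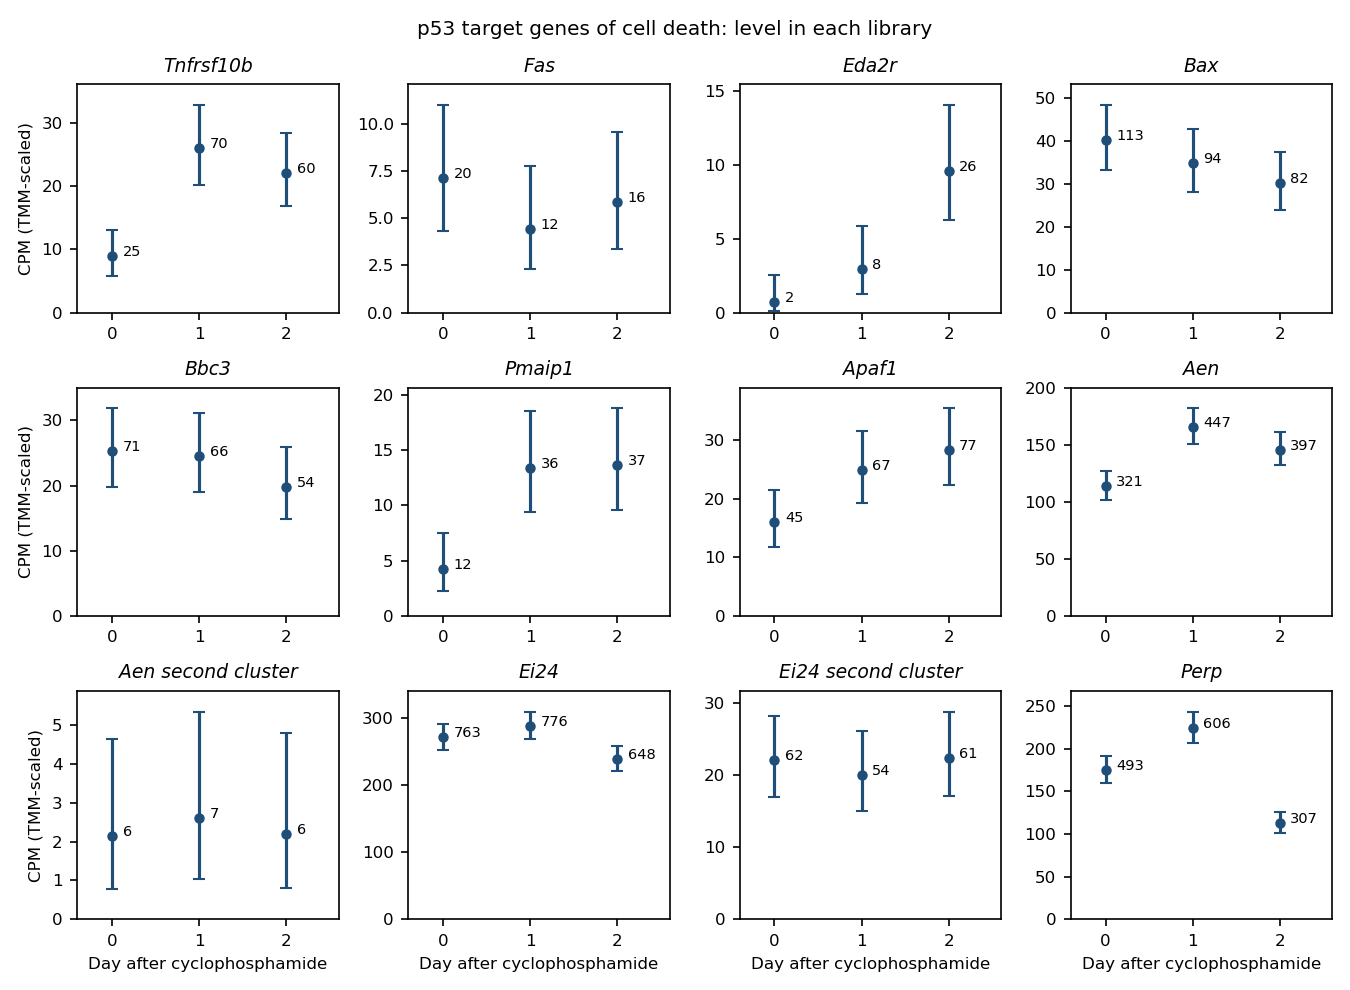
Level of each of the 12 clusters (y axis, CPM after TMM scaling) by day after cyclophosphamide (x axis), 1 library per day, with bars for 95% Poisson intervals of the tag count and the count written beside each point. The points of Tnfrsf10b and Pmaip1 at days 1 and 2 lie above those of day 0, Eda2r is highest at day 2, and Perp is highest at day 1 and lowest at day 2.

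Tnfrsf10b had 25 tags at day 0, 70 at day 1 and 60 at day 2, or 8.89, 26.0 and 22.1 CPM. Both treated libraries were above the untreated one, and their counting intervals (20.3 to 32.8 and 16.8 to 28.4 CPM) did not overlap that of day 0 (5.75 to 13.1 CPM). The log2 ratio to day 0 was 1.53 (0.87 to 2.27) at day 1 and 1.29 (0.62 to 2.05) at day 2, with adjusted p-values of 1.94e-05 and 0.000539 in the exact test. Days 1 and 2 differed by -0.23 (-0.76 to 0.28), which was not called. Its tags came from 2 sites. Site 1 gave 18, 50 and 35 tags and site 4 gave 7, 20 and 25, so that the log2 ratio to day 0 was 1.51 at either site at day 1, but 0.99 at site 1 and 1.81 at site 4 at day 2. The share of tags at site 4 was 28.0% (12.1 to 49.4, exact), 28.6% (18.4 to 40.6) and 41.7% (29.1 to 55.1), intervals that overlap. The day 2 call was lost when only site 1, the one with a tag found in 1 gene, was counted (adjusted p = 0.059 in the exact test).

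Eda2r encodes a receptor of the tumour necrosis factor family that binds the A2 form of ectodysplasin and signals through TRAF proteins. It had 2 tags at day 0, 8 at day 1 and 26 at day 2, or 0.711, 2.97 and 9.56 CPM. The order of the days was the order of the counts, with the intervals of days 0 and 1 overlapping (0.086 to 2.57 and 1.28 to 5.85 CPM) and that of day 2 above both (6.25 to 14.0 CPM). The log2 ratio to day 0 was 1.82 (-0.26 to 5.34) at day 1, which was not called. At day 2 it was 3.45 (1.75 to 6.87; adjusted p = 1.2e-05 in the exact test), a range of 3.37-fold to 117-fold, because only 2 tags stand in the untreated library. Against day 1, day 2 was at 1.63 (0.50 to 3.04), not called (exact test, adjusted p = 0.0183). All tags of days 0 and 1 came from site 1, which held 19 of 26 at day 2. The other 7 came from sites 6 and 4, with 5 and 2 copies. A tag with fewer than 2 copies is not listed, so sites 6 and 4 need not have been absent at days 0 and 1. The 2 tags of day 0 are themselves at this floor. Eda2r had enough tags to be tested only through the 26 of day 2. The 2 and 8 tags of days 0 and 1 together fall short of the minimum, which is summed over all libraries. With no filter on low counts Eda2r was still called at day 2 over day 0. At site 1 alone the log2 ratio of day 2 to day 0 was 3.005 (adjusted p = 0.000639 in the exact test).

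Fas, the receptor of the Fas ligand, was at 20, 12 and 16 tags, or 7.11, 4.45 and 5.89 CPM, all from 1 site. The 3 intervals overlapped, and the log2 ratios to day 0 were -0.65 (-1.84 to 0.43) and -0.27 (-1.32 to 0.75). At this depth a rise of Fas by more than 1.345-fold at day 1 or 1.68-fold at day 2 lies outside the counting interval.

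Bax, the pore-forming effector of the mitochondrial route, had 113, 94 and 82 tags, or 40.2, 34.9 and 30.2 CPM. Day 0 was the highest and day 2 the lowest, with overlapping intervals. The log2 ratio to day 0 was -0.20 (-0.61 to 0.20) at day 1 and -0.41 (-0.84 to 0.01) at day 2, neither called. Site 1 held 95.2% of Bax tags, with 108, 89 and 78 copies.

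Bbc3 was at 71, 66 and 54 tags, or 25.2, 24.5 and 19.9 CPM, in the same order of days as Bax. Its ratios to day 0 were -0.04 (-0.55 to 0.46) and -0.34 (-0.88 to 0.18), neither called. For both genes the upper ends of the day 1 intervals, 1.15-fold for Bax and 1.38-fold for Bbc3, lie under the 2-fold minimum. All but 2 of the Bbc3 tags came from a site 49 bases before the end of its reference transcript.

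Pmaip1, the third Bcl2 family member, had 12 tags at day 0, 36 at day 1 and 37 at day 2, or 4.27, 13.4 and 13.6 CPM. The treated libraries were nearly equal (0.03, -0.68 to 0.73) and both lay above the untreated one without overlap of the counting intervals. The log2 ratio to day 0 was 1.61 (0.67 to 2.73) at day 1 and 1.63 (0.70 to 2.75) at day 2. These ratios were as large as those of Tnfrsf10b, but with 12 tags at day 0 the adjusted p-values in the exact test, 0.00303 and 0.00161, missed the threshold of 0.001, and Pmaip1 was not called. Site 1, in the 3' UTR, held 12, 33 and 37 of the tags.

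**Figure D2:**
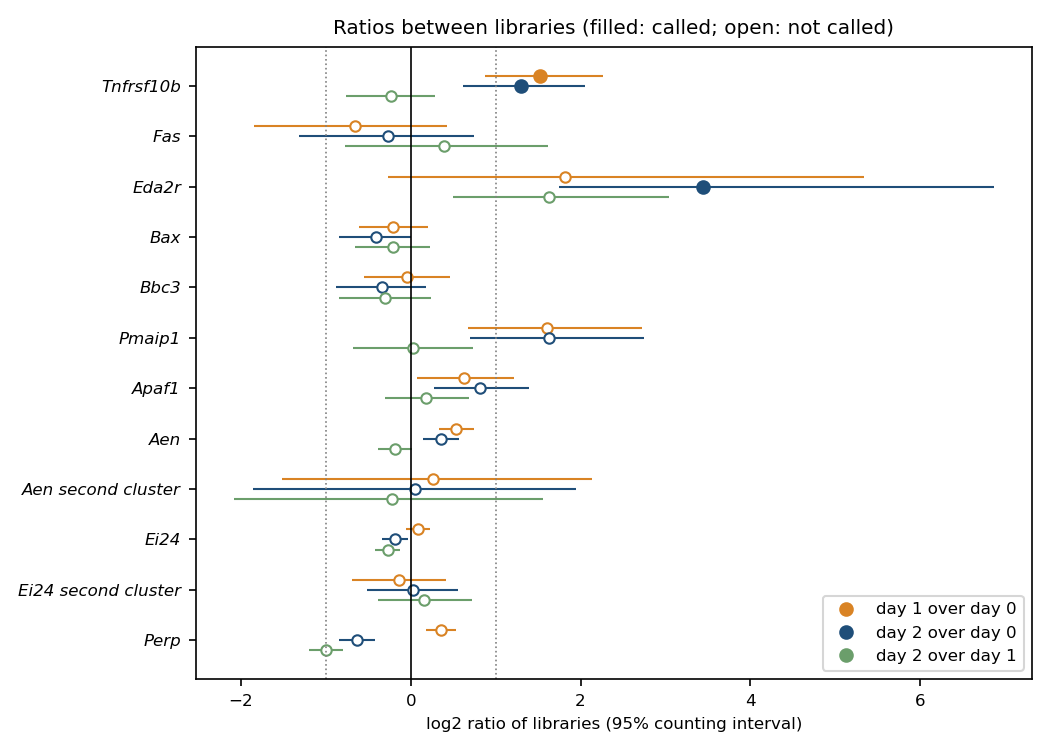
Log2 ratio between libraries (x axis) for each cluster (y axis), in 3 colours for the 3 comparisons, with 95% counting intervals as lines and dotted lines at 2-fold. The filled points, which were called, are Tnfrsf10b at days 1 and 2 over day 0 and Eda2r at day 2 over day 0, while Pmaip1 lies beyond 2-fold at both days as an open point.

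Apaf1, the core of the apoptosome, had 45, 67 and 77 tags, or 16.0, 24.9 and 28.3 CPM. Both treated libraries were above day 0 with intervals that overlapped at day 1 (11.7 to 21.4 against 19.3 to 31.6 CPM) and were apart at day 2 (22.4 to 35.4 CPM). The ratios were 0.63 (0.07 to 1.22) and 0.82 (0.28 to 1.39), under 2-fold and not called (adjusted p = 0.0878 and 0.00957 in the exact test). Site 1 held 94.7% of the tags, and at this site alone the ratios were 0.54 and 0.70.

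Aen is an exonuclease of the nucleus and nucleolus that enhances apoptosis. Its main cluster had 321, 447 and 397 tags, or 114, 166 and 146 CPM, with day 0 the lowest and no overlap between the intervals of day 0 and those of the treated days. The ratio to day 0 was 0.54 (0.33 to 0.75) at day 1 and 0.36 (0.14 to 0.57) at day 2. The adjusted p was 4.2e-06 at day 1 and 0.00523 at day 2 in the exact test, and the size, 1.45-fold and 1.28-fold, was under the minimum of 2, so neither was called. The second Aen cluster, read through a coding site, had only 6, 7 and 6 tags and could not show such a difference.

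Ei24, a membrane protein of the endoplasmic reticulum first found as a gene induced by etoposide, had 763, 776 and 648 tags in its main cluster, or 271, 288 and 238 CPM. Its ratios to day 0 were 0.09 (-0.06 to 0.23) and -0.19 (-0.34 to -0.03), neither called, and the sign at day 1 was -0.04 when libraries were scaled by the tags in the tables. Its second cluster had 62, 54 and 61 tags. The main Ei24 cluster, with the most tags of the 12, had the narrowest interval at day 1, which ended at 1.18-fold.

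Perp is a membrane protein of desmosomes, the junctions that hold keratinocytes together, and is also a target of the p53 relative p63 in skin. It had 493 tags at day 0, 606 at day 1 and 307 at day 2, or 175, 225 and 113 CPM. The 3 counting intervals (160 to 191, 207 to 244 and 101 to 126 CPM) did not overlap, with day 1 the highest and day 2 the lowest. The ratio to day 0 was 0.36 (0.19 to 0.53; adjusted p = 0.000398 in the exact test) at day 1 and -0.63 (-0.85 to -0.43; adjusted p = 1.64e-08 in the exact test) at day 2, both under 2-fold and not called. Day 2 over day 1 was -0.99 (-1.20 to -0.79; adjusted p = 3.19e-22 in the exact test), a ratio of 1.99 that lies just inside the 2-fold minimum, so Perp was not called here either. With DESeq2 size factors the same ratio was -1.01 and was called. Whatever the ratio, 3 member clusters passed the adjusted p of 0.001 on the positive side at day 1 (Tnfrsf10b, Aen and Perp), against 5.96% of all clusters, and 0 on the negative side, against 5.23%. At day 2 it was 2 on the positive side (Tnfrsf10b and Eda2r), against 7.37%, and 1 on the negative side (Perp), against 7.91%. Between days 1 and 2 it was 0 on the positive side, against 4.63%, and 1 on the negative side (Perp), against 5.28%.

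The Perp tags came mostly from an internal site. Site 5, at 1565 bases before the end of the reference transcript, held 452, 553 and 283 tags, and site 4 held 35, 37 and 22. The share at site 5 was 91.7%, 91.3% and 92.2% at days 0, 1 and 2, so both sites were lowest at day 2, at -0.63 and -0.61 against day 0. No tags were listed at the 3 sites nearest the 3' end of the cluster's sequence. On the reference transcript, sites 5 and 4 are numbers 7 and 6 from the 3' end.

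**Figure D3:**
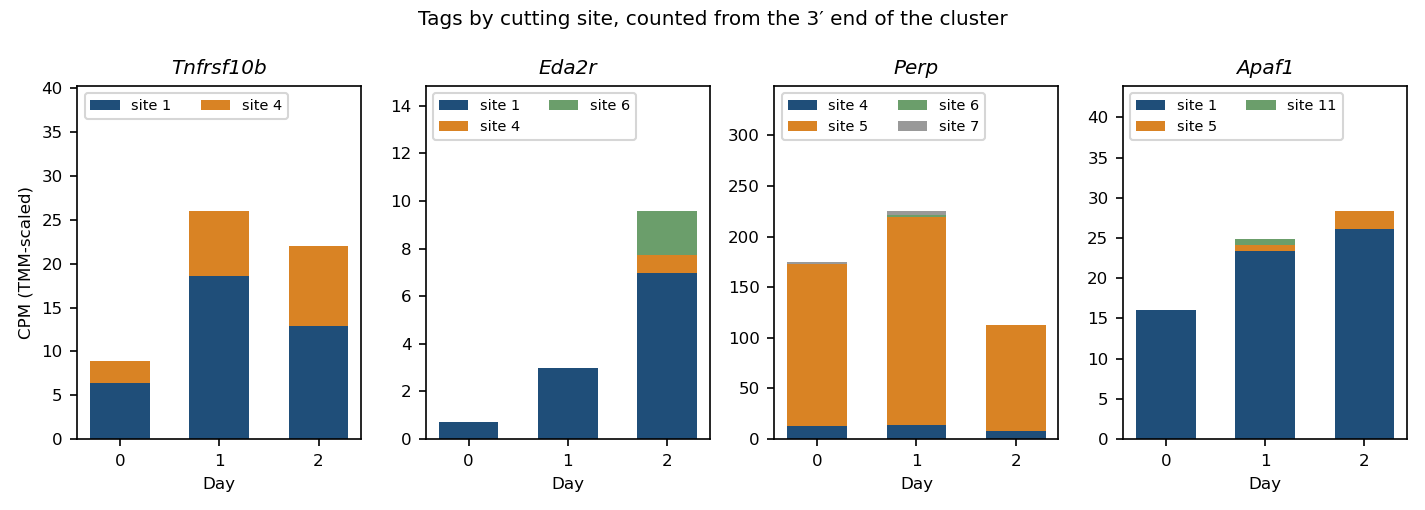
CPM after TMM scaling (y axis) by day (x axis) for 4 genes, with bars split by CATG site, numbered from the 3' end of the cluster. Tnfrsf10b is read at sites 1 and 4 in every library. Eda2r has listed tags (2 or more copies) at sites 4 and 6 in the day 2 library only. Perp is read almost only at site 5, and Apaf1 mostly at site 1.

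Of the 36 tag sequences in the 12 clusters, 27 match transcripts of 1 gene, 1 matches 2 genes and 8 match none exactly. The 8 hold 21 of 5947 tags, so that 0.35% of the members' tags rest on sequences with no exact match. In the main Aen cluster, 1 tag sequence with 4 copies at day 2 matches Pank1 and not Aen.

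Junction and hair follicle genes are given beside Perp. Among 8 desmosome genes 0 rose and 0 fell at day 1, with 6 ratios positive and 2 negative and a median of 0.15. Over all tested clusters 48.7% were positive at day 1. At day 2 1 fell against day 0, Jup (plakoglobin), from 2754 tags to 1232 (-1.11). Between days 1 and 2, Dsc1 (desmocollin 1) fell from 248 tags to 107 (-1.22). With 174 tags at day 0, Dsc1 had the same order of days as Perp. Of the 8 ratios at day 2 over day 0, 5 were positive, among them Dsg3 (desmoglein 3; 217, 211 and 313 tags, 0.58) and Dsc3 (1327, 1350 and 1541 tags, 0.26), neither called. Dsg3 and Dsc3, and Dsc1 for its order of days, were chosen after their values were seen. Of the 8 ratios of day 2 over day 1, 2 were positive (Dsg3 and Dsc3) and 6 negative, with a median of -0.365. Over all tested clusters 49.4% were positive in this comparison. The summed level of the 8 was 2946, 3233 and 2630 CPM. Of 6 hair matrix genes tested 1 fell at day 1 (Shh) and 3 at day 2 (Shh, Msx2 and Krt35). At day 1, 4 ratios were negative and 2 positive, those of Dlx3 (768, 1111 and 596 tags, 0.59) and Foxn1 (250, 289 and 173 tags, 0.27). Neither was called, and both had the same order of days as Perp. The list's summed level was 2451, 2044 and 944 CPM, of which Krt35 held 1411, 1020 and 331. Between days 1 and 2, Krt35 fell, and of the 6 ratios 1 was positive and 5 negative, with a median of -0.747. Of 7 epidermal keratinocyte genes 0 were called in any comparison. Their ratios were positive for 5 and negative for 2 both at day 1 and between days 1 and 2. The part of these cells in the values of Perp was not tested.

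Markers of other cells are given beside the receptors and Pmaip1. Of 7 macrophage genes, all but Cd68 were listed, and 1 rose at day 1 (Fcgr1) and 3 at day 2 (Mrc1, Fcgr1 and Ms4a7). At day 2 over day 0 the ratios were positive for 5 and negative for 1, Adgre1 (84, 43 and 72 tags). The list's summed level was 193, 182 and 409 CPM, of which Mrc1 held 57.6, 49.7 and 171. Of 7 T cell genes, Cd3e, Cd3g and Cd8a were not listed in any library and Cd4 only at day 0 with 5 tags, and Cd3d had 11, 10 and 14 tags. The list's summed level of 142, 209 and 302 CPM was mostly Thy1, which other skin cells also express and which rose at day 2 (376, 544 and 803 tags). Of 7 skeletal muscle genes 4 rose at day 1 and 5 at day 2, and their sum was 8122, 12484 and 17382 CPM. Of 6 fibroblast genes 0 were called at day 1 and 2 rose at day 2, at sums of 2982, 1900 and 3324 CPM. All 4 tested red cell genes fell at day 2 and 0 were called at day 1, at sums of 1833, 1653 and 145 CPM. The part of these cells in the values of Tnfrsf10b, Eda2r and Pmaip1 was not tested.

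The remaining genes of the pathway were described through 4 lists. Among 13 tested genes of 15 other p53 targets linked to cell death, 0 were called at day 1, and 1 rose and 0 fell at day 2. The 1 was Zmat3, an RNA-binding protein induced by p53, at 79, 131 and 157 tags (1.04, 0.64 to 1.45, at day 2). The list's medians were 0.20 and 0.21, against -0.02 and 0.01 over all tested clusters. Of the 13 ratios 8 were positive at day 1 and 9 at day 2, where 48.7% and 50.4% of all tested clusters were positive. Phlda3 and Bnip3l had the most tags of the list and are named because none was called at day 1. Their ratios were 0.22 and -0.01 at day 1 and 0.09 and -0.14 at day 2.

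Of p53 itself and 5 feedback genes, Trp53 was not listed under the naming used here. Ccng1 (cyclin G1), a long-known p53 target, had 31, 49 and 117 tags, and it rose at day 2 against day 0 (1.95, 1.38 to 2.59) and against day 1 (1.23, 0.75 to 1.75). It was the 1 of the 5 to do so, and 0 of the 5 were called at day 1. Mdm2, which degrades p53, had 122, 93 and 120 tags, and the cell cycle inhibitor Cdkn1a (p21) had 97, 91 and 91, neither called.

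Of 8 tested genes of the death receptor pathway 1 fell at each day and 0 rose. It was Traf6, an adaptor of several receptors of the family, with 139, 60 and 52 tags (-1.14 and -1.36). The list's medians were -0.32 and -0.45. The ligands were chosen for mention after their values were seen: Eda, whose A2 form binds Eda2r, had 30, 20 and 18 tags, Tnfsf10 (TRAIL) had 8, 6 and 2, and the Fas ligand was not listed. None of these was called. Of 12 tested genes of the mitochondrial pathway and caspases 0 were called at any comparison, and the medians were -0.08 and -0.005. Bak1, the relative of Bax, had the most tags of the list, with 184, 201 and 165.

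**Figure D4:**
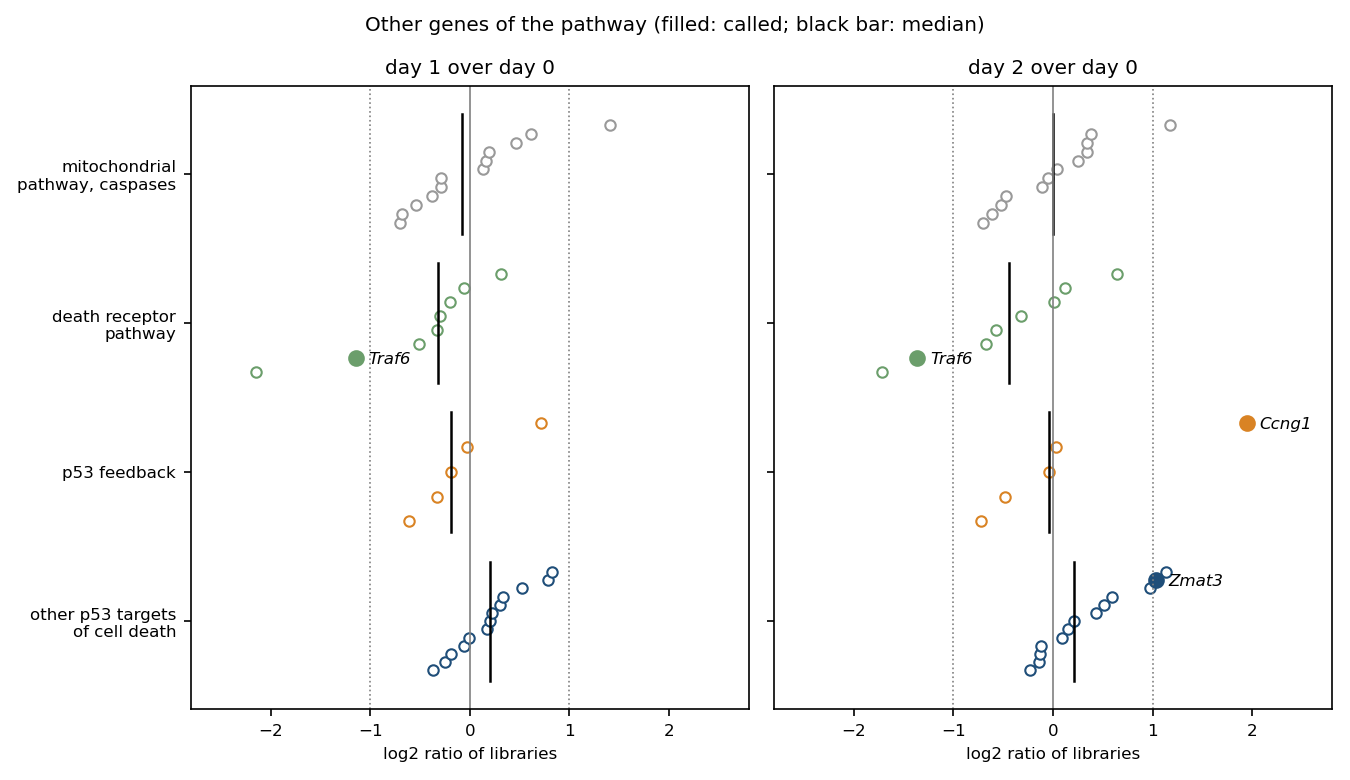
Log2 ratio to day 0 (x axis) at day 1 (left) and day 2 (right) for the tested genes of 4 lists (y axis), each point a gene, with a black bar at the list's median and dotted lines at 2-fold. The called genes are filled and named: Traf6 at both days, with Zmat3 and Ccng1 at day 2.

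The genes most like the called members were taken among 6563 named clusters with 20 CPM or more in their highest library, by the Euclidean distance between the pairs of log2 ratios to day 0, over 3 libraries. Nearest to Tnfrsf10b were Phf11d (33, 98 and 80 tags, distance 0.09), Plb1 (34, 89 and 81 tags, distance 0.09) and Irgm2 (41, 117 and 104 tags, distance 0.09). Nearest to Eda2r was Lbp, the lipopolysaccharide-binding protein, with 89, 211 and 801 tags at a distance of 0.57, followed by Kcnc4 at 0.83 and Atp12a at 0.86. The level filter can be passed through the treated libraries alone, and the ratios of Eda2r rest on 2 tags at day 0, so distances are not compared between the called members.

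Reference promoters, 250 bases before to 50 bases after a gene's start in RefSeq (GRCm38.p6), were given for 7 of the 10 genes and were searched on both strands for the p53 decamer, the unit that occurs in tandem in p53 response elements. Tnfrsf10b, Pmaip1 and Perp were not searched here, so Eda2r was the 1 called gene among the 7. The decamer was found in 3 of the 7 genes. Counted by promoter, it was in 4 of 10, of which the 2 of Aen overlap and share 1 match, and in 8.4% of all 32851 promoters of this length. The matches are shown in capitals with their flanks, as the letters behind this count.
Bax decamer: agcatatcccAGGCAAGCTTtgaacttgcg
Aen decamer: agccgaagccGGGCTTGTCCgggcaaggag
Ei24 decamer: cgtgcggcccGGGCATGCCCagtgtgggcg
The capitals lie at chr7:45467090-45467099 (minus strand) for Bax, 201 bases before the start, at chr7:78895937-78895946 (plus strand) for Aen and at chr9:36797335-36797344 (minus strand) for Ei24. The decamer was searched as 3 purines, C, a pair of A or T, G and 3 pyrimidines, with no mismatch allowed. The windows of Bbc3, Apaf1, Fas and Eda2r held no match. Each window has 300 bases, and the rest of these genes was not searched. A match describes the letters and is no measure of binding.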

How the data were processed

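Total RNA of whole skin was profiled in 3 libraries, 1 per group. Per the labels' protocols, the authors bound polyadenylated RNA to oligo(dT) beads, cut the cDNA with NlaIII and MmeI, amplified the tags by PCR and sequenced them on an Illumina instrument. For the aligner, the mismatches allowed and the builds: not given in the sources used here. Per the file headers, the deposited tables give raw counts of tags per UniGene cluster, the copy number of each tag, and TPM values per 1000000 of all tags kept. The copy numbers sum to the count in every cluster, and no tag has fewer than 2 copies, hence an unlisted tag need not be absent. TPM entered only 1 alternative and the share of kept tags that the tables hold.

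Clusters were named by exact match of their tags to GENCODE M21 transcripts: a gene had to hold 80% of the matched and 50% of all tags (15076 clusters by tags of 1 gene, 767 by shared tags, 195 by RefSeq accession, 4557 unnamed). Libraries were scaled by TMM (edgeR 4.0.16; factors 1.03, 0.942 and 1.03). Clusters with 15 or more tags over the 3 libraries were tested by a two-sided exact conditional binomial test (scipy 1.17.1) with Benjamini-Hochberg adjustment, and called at an adjusted p of 0.001 and 2-fold. Log2 ratios carry a pseudocount of 0.5 tags. A gene in a list is represented by its cluster with the most tags, while summed levels take all its clusters. Tested on simulated libraries of 13812 clusters with counting error alone, the test for day 1 over day 0 called 26 of 50 clusters changed 2.5-fold and 43 of 50 changed 8-fold. Named in the text are all 10 members, up to 4 called genes at 20 CPM or more of each pathway list (with none called, the 2 with the most tags), Mdm2, Cdkn1a and Ccng1, and the 3 genes nearest to each called member. Marker lists are given by counts and sums, and the marker genes named were chosen after their values were seen. A result that this rule would name is not reported here. The members and lists were chosen with earlier results of these data known. Of the alternatives, 13 were planned and 1, summing the clusters of a gene, was chosen after seeing the data.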

Additional observations from a re-analysis of the deposited data

Results flagged for a closer look

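The ratios of Perp to day 0 differed between the treated days in the exact test of the day 2 and day 1 libraries. Perp was at 0.36 at day 1 and at -0.63 at day 2, and the log2 ratio of day 2 over day 1 was -0.99 (adjusted p = 3.19e-22 in the exact test), in 1 library per day.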

How the results depend on the processing

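No paired analysis was possible because each group has 1 library, and for the same reason no library could be left out. The counts of members called depended on the scaling, the tags counted, the rule and the assumed variation. At day 2 over day 0, 1 member in place of 2 was called higher by tags that match 1 gene exactly, by the 3'-most site and by the tag with most copies, since Tnfrsf10b was then at 0.99. With 1.5-fold and an adjusted p of 0.05, 2 were higher at day 1, 4 higher and 1 lower at day 2, and 1 higher and 1 lower between days 1 and 2. With 2-fold and no test, 3 were higher at day 1 and 1 between days 1 and 2. DESeq2 size factors gave 1 lower between days 1 and 2, Perp. When animals were assumed to vary with a coefficient of 0.2 (edgeR exact test, adjusted p of 0.05), 0 were higher at day 1 and 1 at day 2, Eda2r, and at 0.4 the counts were 0 and 0. The 3'-most site gave values for 8 of the 12 clusters, as did the description column alone. Of 474 member ratios under the alternatives 454 kept their side of the call, 12 became called and 8 lost the call, and 2 of 36 ratios, both of Ei24, changed sign without being called. Scaled by all kept tags, 3 members in place of 2 were called higher at day 2, with Pmaip1 added (1.67, adjusted p = 0.000983 in the exact test).

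Over all clusters, 211 were higher and 197 lower at day 1 (51.7% of calls higher). Scaling by the tags in the tables gave 129 and 346 (27.2%) and shifted the median of all clusters by -0.13, and by all kept tags 157 and 276 (36.3%). Between days 1 and 2 the 253 higher and 154 lower calls (62.2%) became 380 and 102 (78.8%, shift 0.13) and 358 and 109 (76.7%, shift 0.11). At day 2 over day 0 the calls were 477 and 425. The rule of 1.5-fold with an adjusted p of 0.05, in place of 2-fold with 0.001, gave 973 and 1038, 1418 and 1482, and 953 and 790 in the order day 1, day 2, day 2 over day 1. The rule of 2-fold without a test gave 800 and 944, 1258 and 1132, and 1078 and 675. The assumed variation of 0.2 gave 16 and 13, 149 and 96, and 57 and 33, and that of 0.4 gave 0 and 0, 5 and 1, and 2 and 0.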
